A study of Mus musculus with 9 samples.

Results

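The genes described here are 8 transcription factors and transcription cofactors of the mouse oocyte, chosen by name from the 26358 genes of the deposited table: Figla, Nobox, Lhx8, Sohlh1, Sohlh2, Taf4b, Tbpl2 and Foxo3. They were followed in mouse oocytes that were either fresh or had been frozen by 1 of 2 methods, with 3 poly(A) RNA-seq libraries in each of the 3 groups. Cryopreservation-1 used a cryotop carrier with 15% EG (ethylene glycol), 15% DMSO and 0.5 M sucrose. Cryopreservation-2 used a straw, 17.5% EG and 1 M trehalose together with PVA/Fe3O4/GO nanoparticles, so that carrier, sugar and additives all differ between the methods and their parts cannot be told apart. Strain, age, meiotic stage, the number of oocytes per library and the time from warming to lysis are not stated in the labels. All 8 genes were in the table and all 8 passed the filter on low counts that left 17545 genes for testing. Sohlh1, at 0 counts in all fresh libraries, passed only through counts in frozen libraries. Its higher level against fresh is therefore built in by the filter.

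These factors act in a regulatory network of the female germline. Sohlh1 and Sohlh2 are germ cell basic helix-loop-helix (bHLH) proteins needed for the first growth of the oocyte in its follicle, and Lhx8, a LIM-homeobox factor, and Nobox, an oocyte homeobox factor, are needed at the same stage. Figla, another bHLH factor, is required for primordial follicles to form and for expression of the zona pellucida genes. Taf4b is a gonad-enriched subunit of TFIID, the complex that sets RNA polymerase II on promoters, and Tbpl2 is an oocyte relative of the TATA-binding protein Tbp that takes its place in growing oocytes. Foxo3 holds primordial follicles dormant while it is nuclear, and is sent out of the nucleus once the Kit receptor has activated PI3K and AKT. Since bHLH proteins bind the short motif called an E-box and the homeobox, forkhead and TATA-binding proteins have motifs of their own, the DNA just before each gene's start is shown first.

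RefSeq windows on GRCm38 were matched for 7 of the 8 members, all but Taf4b, and the 250 bases before each start were searched on both strands. The E-box was written CANNTG, which reads the same on both strands. It was found in 5 of the 7 windows, with 5 copies for Sohlh1, 4 for Tbpl2, 2 each for Figla and Nobox and 1 for Sohlh2, and in none for Lhx8 and Foxo3. Of 32817 windows of the same length, 66.2% held at least 1 E-box, so most promoters carry these letters. The upstream sequences of the 4 members whose levels or E-boxes the results below refer to most are given 5′ to 3′ on the gene's strand, in lower case with each E-box in capitals. They lie on chr6:43309555-43309804 (minus strand) for Nobox, chr2:25847249-25847498 (minus) for Sohlh1, chr3:55181794-55182027 (plus) for Sohlh2 and chr2:24096596-24096845 (minus) for Tbpl2, each ending at the base before the gene.
Nobox: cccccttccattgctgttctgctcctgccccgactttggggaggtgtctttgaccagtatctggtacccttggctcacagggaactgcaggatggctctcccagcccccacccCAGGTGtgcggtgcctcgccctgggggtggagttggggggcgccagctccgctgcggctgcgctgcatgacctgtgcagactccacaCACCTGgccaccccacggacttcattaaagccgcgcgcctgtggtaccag
Sohlh1: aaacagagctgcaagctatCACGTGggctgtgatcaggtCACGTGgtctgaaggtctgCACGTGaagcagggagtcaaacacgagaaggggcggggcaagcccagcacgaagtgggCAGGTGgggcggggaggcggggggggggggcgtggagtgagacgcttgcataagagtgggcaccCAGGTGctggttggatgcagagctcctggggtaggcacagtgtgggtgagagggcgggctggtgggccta
Sohlh2: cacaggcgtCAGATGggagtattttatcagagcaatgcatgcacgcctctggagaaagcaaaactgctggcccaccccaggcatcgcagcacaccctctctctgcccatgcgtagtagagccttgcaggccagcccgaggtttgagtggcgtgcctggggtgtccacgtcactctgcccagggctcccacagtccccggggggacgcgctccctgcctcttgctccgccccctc
Tbpl2: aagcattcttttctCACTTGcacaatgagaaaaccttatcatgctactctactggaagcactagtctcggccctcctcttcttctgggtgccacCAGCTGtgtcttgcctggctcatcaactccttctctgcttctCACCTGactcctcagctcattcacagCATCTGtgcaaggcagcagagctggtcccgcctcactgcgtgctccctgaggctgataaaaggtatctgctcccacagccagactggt

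In the Sohlh1 sequence 3 of the 5 E-boxes share 1 form, CACGTG, which reads alike on both strands, while the 4 of Tbpl2 are all of different letters. The other 2 of Sohlh1 and both of Nobox are a single form, on 1 strand or the other. Further motifs were searched on both strands. TAATTG, an element bound by Nobox, was held by 7.17% of all windows of this length. The element of Lhx8 was written TGATTG and was found in 12.7% of the windows. A forkhead element spelled TGTTTAC was in 3.16%, and the TATA box, with the letters TATAAA searched for, in 12.4%. None of these 4 motifs occurred in the 250 bases of any of the 7 members, which says only that these letters are not in these windows.

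The values are 1 per gene, and the positions on GRCm38 are those of the deposited table. Figla (ENSMUSG00000030001) lies on chromosome 6 at 86016171 to 86020996 and Nobox (ENSMUSG00000029736) on the same chromosome at 43303674 to 43309554. Sohlh1 (ENSMUSG00000059625) and Tbpl2 (ENSMUSG00000061809) lie on chromosome 2, at 25842995 to 25847248 and at 24071721 to 24096595. Lhx8 (ENSMUSG00000096225) and Sohlh2 (ENSMUSG00000027794) lie on chromosome 3, at 154306294 to 154330659 and at 55182028 to 55209957. Taf4b (ENSMUSG00000054321) lies on chromosome 18 at 14783245 to 14900359, and Foxo3 (ENSMUSG00000048756) on chromosome 10 at 42181841 to 42276752. The only other annotated gene overlapping a member was a processed pseudogene inside Taf4b on the same strand.

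Total counts lay between 49337232 and 80877288 per library, with all 3 cryopreservation-2 libraries below the other 6. Where a gene has 0 counts, its true level can still reach 3 counts, which is 0.0371 to 0.0608 CPM (counts per 1e6 counts of the library, before scaling). This floor is for counting error only. Fresh replicate 3, cryopreservation-1 replicate 3 and cryopreservation-2 replicate 1 had more genes at 0 counts (8421 to 9108) than the other 6 libraries (6351 to 7744), and values without these 3 are given where they bear on a result. The oocyte label was checked against 12 oocyte marker genes, all of them expressed, whose summed share of counts was 1.46 to 2.15% in fresh, 1.40 to 1.95% in cryopreservation-1 and 1.16 to 2.01% in cryopreservation-2 libraries. Of these 12, Padi6 was called higher after cryopreservation-2 than in fresh, and Dazl, a germ cell RNA-binding protein gene, was called lower, with mean levels of 1587, 1383 and 479 CPM in the 3 groups (3.31-fold below fresh, edgeR adjusted p = 0.00611; 2.89-fold below cryopreservation-1, edgeR adjusted p = 0.0138). Markers of cumulus and granulosa cells, the follicle cells around the oocyte, made up 0.0951 to 0.126%, 0.103 to 0.127% and 0.113 to 0.1765%, and 0 of the 10 tested were called by edgeR in any comparison (at most 1 at an unadjusted p under 0.05, and 1 call by DESeq2). Nearly all of that share was 1 gene, Serpine2, at 1141 of the 1230 summed CPM in fresh oocytes. It was followed by Cyp19a1 at 65.1, Nr5a2 at 13.4, Kitl at 6.45 and Star at 1.39. Fshr, Has2, Ptgs2, Lhcgr and Cyp11a1 were below 1 CPM there. Markers of blood, stroma and endothelium made up 0.0109 to 0.0203% of counts in all libraries, and 1 of the 7 tested, the smooth muscle myosin gene Myh11, was higher after cryopreservation-2 than in fresh oocytes (adjusted p = 0.0404, edgeR). The largest part of this second share was Pecam1, at 110.1 CPM in fresh, followed by Myh11 at 19.7, C1qb at 6.91, Cd68 at 4.55 and Dcn at 2.09. At 0 counts in all fresh and cryopreservation-1 libraries were 2 of the 13 follicle cell markers in the table (Ptx3 and Gatm) and 5 of the 13 others (Ptprc, Hba-a1, Hbb-bs, Lyz2 and C1qa), which reached at most 19 counts in a cryopreservation-2 library. The part of such cells in the results was not tested.

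The members spanned a wide range of abundance. Per length, as deposited FPKM averaged over the 9 libraries, Nobox stood highest at 51.6, followed by Lhx8 at 22.9, Tbpl2 at 13.9, Foxo3 at 11.2, Sohlh2 at 9.95, Taf4b at 2.98, Figla at 1.35 and Sohlh1 at 0.0872. Nobox thus ranked 864 of the 26358 genes by FPKM, and Sohlh1 ranked 15965. In each of the 9 libraries Nobox was first and Lhx8 second, and Taf4b, Figla and Sohlh1 were sixth, seventh and eighth. The 3 genes between them, Tbpl2, Foxo3 and Sohlh2, changed places from library to library, and their order is within the spread. By the range over libraries, Nobox (33.8 to 84.0 FPKM) did not overlap Lhx8 (15.5 to 31.9), whereas Lhx8 overlapped Tbpl2 (9.72 to 19.8) and Taf4b (1.95 to 3.71) overlapped Figla (0.587 to 2.29). The deposited FPKM follow the summed exon length of a gene, from 836 bases for Figla to 7571 for Foxo3, so Foxo3 ranks lower per length than by CPM.

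Together the 8 genes took 0.0313% ± 0.00389 (SD, n = 3) of all counts in fresh oocytes, 0.0336% ± 0.000452 after cryopreservation-1 and 0.0399% ± 0.00314 after cryopreservation-2. Scaled by TMM (edgeR's correction for libraries that differ in composition), the sums were 330.4 ± 22.5, 348.7 ± 2.003 and 363 ± 27.9 CPM. The rise in the plain share was thus smaller after scaling, with shares of the scaled library size of 0.0330%, 0.0349% and 0.0363%. All CPM below are scaled in this way. In these bulk samples fewer cells and less RNA per cell cannot be told apart, and a level is always relative to the other poly(A) RNA of its library.

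**Figure D1:**
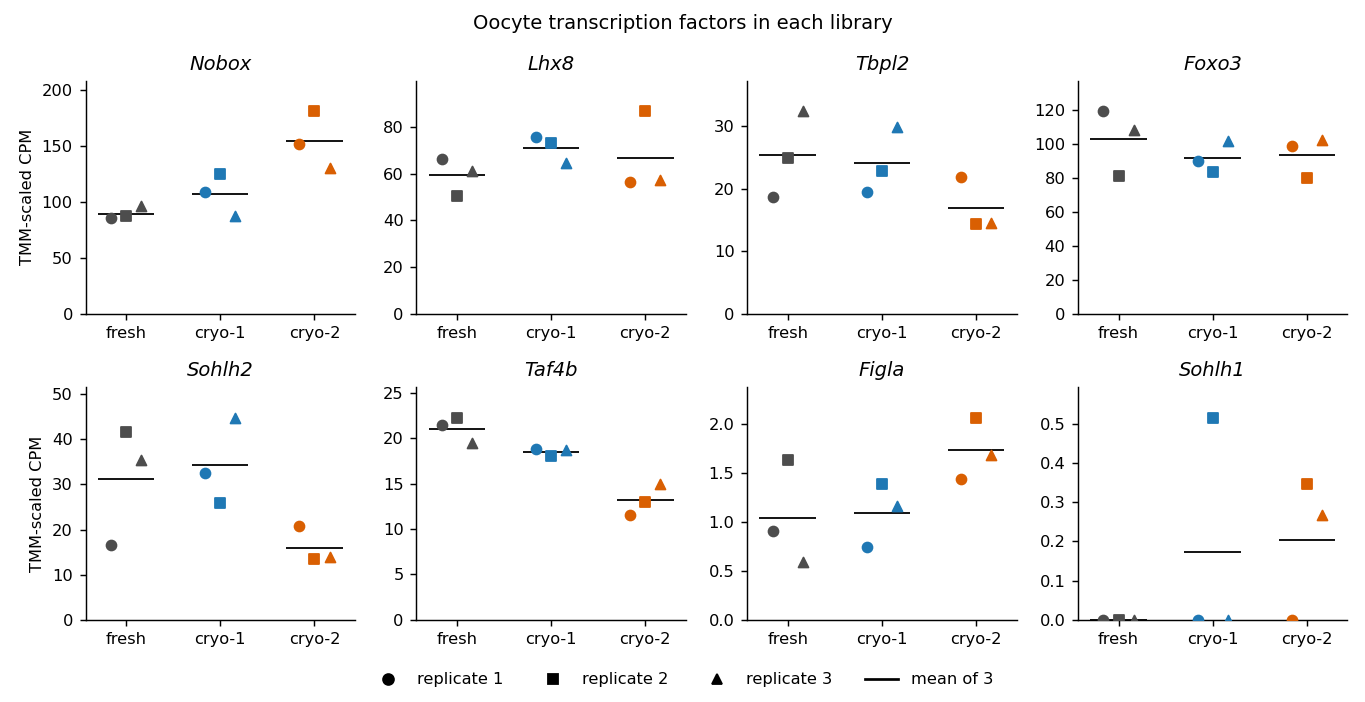
Level of each factor in each library, as TMM-scaled CPM on a linear axis from 0, for fresh, cryopreservation-1 (cryo-1) and cryopreservation-2 (cryo-2) oocytes. Marker shapes give the replicate number and bars the mean of 3; the cryo-2 libraries lie above all fresh libraries for Nobox (129.9 to 181 against 85.2 to 96.3 CPM) and below them for Taf4b (11.6 to 14.9 against 19.5 to 22.3 CPM).

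None of the 8 factors passed the test of edgeR's quasi-likelihood fit (Benjamini-Hochberg adjusted p under 0.05 over all 17545 genes) in any of the 3 comparisons. Against fresh oocytes, 0 of 17545 genes (0%) were called (828 at an unadjusted p under 0.05; 43 by DESeq2 and 0 by limma) after cryopreservation-1 and 5.38% after cryopreservation-2 (3.18% higher, 2.20% lower). Between the 2 methods 2.75% were called (1.50% higher, 1.25% lower). At an unadjusted p under 0.05 there were 0 of 8 factors in the comparison of cryopreservation-1 with fresh, where 4.72% of all genes had such a p, 3 of 8 (Nobox, Taf4b and Sohlh2) for cryopreservation-2 with fresh, where 21.8% had, and the same 3 of 8 for cryopreservation-2 with cryopreservation-1, where 18.9% had. By DESeq2, Nobox and Taf4b were called for cryopreservation-2 against fresh and Sohlh2 for cryopreservation-2 against cryopreservation-1. The median log2 fold change of the 8 factors was 0.10, 0.02 and -0.03 in the 3 comparisons, beside medians of 0.02, -0.06 and -0.07 over all genes. For the 2 comparisons with fresh, the factors' medians include Sohlh1, whose positive sign there is built in by the filter. Log2 fold changes below are from this fit, with their standard error (SE). Nothing in the labels ties replicates to separate animals or pools. The p-values are therefore measured against the spread of these libraries, which may be technical. The 2 comparisons with fresh oocytes share the fresh libraries.

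Nobox had the smallest p-value of the 8 factors for cryopreservation-2 against fresh. Fresh oocytes held 85.2, 87.0 and 96.3 CPM, cryopreservation-1 oocytes 109, 125 and 87.7, and cryopreservation-2 oocytes 152, 181 and 129.9 CPM. All 3 cryopreservation-2 libraries were above all fresh and all cryopreservation-1 libraries, while cryopreservation-1 overlapped fresh through its replicate 3. The fitted difference of cryopreservation-2 from fresh was 0.79 on the log2 scale (SE 0.20, 95% interval 0.33 to 1.24), 1.72-fold higher, with an edgeR adjusted p of 0.0525. Against cryopreservation-1 it was 0.52 (SE 0.20, 95% interval 0.07 to 0.97; edgeR adjusted p = 0.193), and cryopreservation-1 differed from fresh by 0.26 (SE 0.20, 95% interval -0.19 to 0.71; edgeR adjusted p = 1). Over 21 other settings the difference of cryopreservation-2 from fresh stayed between 0.65 and 0.95, with adjusted p from 0.00301 to 0.158, and passed in 5 of them: DESeq2, edgeR with RLE scaling, edgeR with a stricter filter, and limma on FPKM with either pseudocount. It passed in none of the 9 fits that each left out 1 library.

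The other homeobox factor, Lhx8, overlapped between all groups. Its levels were 66.2, 50.4 and 61.1 CPM in fresh, 75.6, 73.1 and 64.6 in cryopreservation-1 and 56.2, 86.6 and 57.3 in cryopreservation-2 libraries. Each cryopreservation-1 library was above the fresh library of the same number, and the difference of these groups was 0.26 (SE 0.22, 95% interval -0.23 to 0.76; edgeR adjusted p = 1; with the replicate block 0.25, adjusted p = 1). The cryopreservation-2 mean rested on replicate 2, which was the highest of all 9. Cryopreservation-2 differed from fresh by 0.17 (SE 0.22, 95% interval -0.32 to 0.67; edgeR adjusted p = 0.733), and without cryopreservation-2 replicate 2 by -0.05 (edgeR adjusted p = 0.949).

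**Figure D2:**
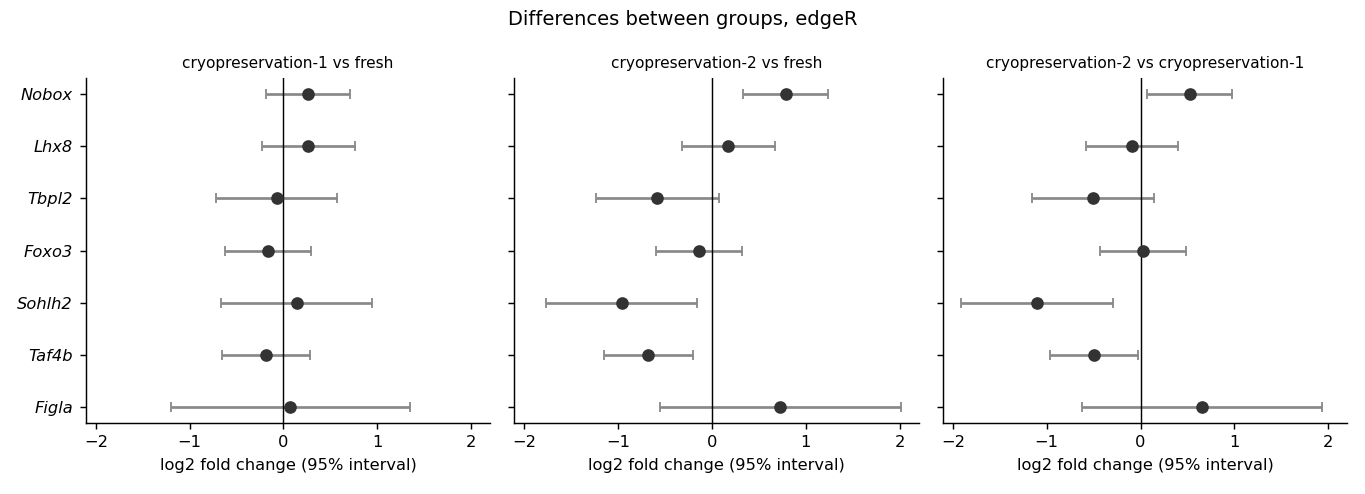
Fitted log2 fold change of 7 factors in the 3 comparisons (edgeR; points with 95% intervals, zero line drawn; the first-named group minus the second). The intervals of Nobox (0.33 to 1.24), Taf4b (-1.15 to -0.21) and Sohlh2 (-1.77 to -0.15) leave out 0 for cryopreservation-2 against fresh, though no factor passed adjustment over all genes; Sohlh1, at 0 counts in 6 libraries, is not drawn.

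Of the bHLH factors, Sohlh2 was expressed at a moderate level, Figla at a low level and Sohlh1 at the limit of detection. Sohlh2 had 16.5, 41.6 and 35.4 CPM in fresh, 32.5, 25.8 and 44.8 in cryopreservation-1 and 20.8, 13.4 and 13.8 in cryopreservation-2 libraries. The cryopreservation-2 libraries were all below those of cryopreservation-1, and overlapped fresh only through fresh replicate 1. Against cryopreservation-1 the difference was -1.10 (SE 0.37, 95% interval -1.91 to -0.29), a 2.14-fold lower level with an edgeR adjusted p of 0.131 (DESeq2: -1.06, adjusted p = 0.0443). Against fresh it was -0.96 (SE 0.36, 95% interval -1.77 to -0.15; edgeR adjusted p = 0.154).

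Figla transcripts gave 73, 113 and 42 counts in fresh, 57, 107 and 72 in cryopreservation-1 and 75, 113 and 101 in cryopreservation-2 libraries. In CPM these were 0.906, 1.62 and 0.592, then 0.739, 1.38 and 1.16, and last 1.44, 2.06 and 1.68. Cryopreservation-2 libraries lay above those of cryopreservation-1 and overlapped the fresh ones. The fitted difference from fresh, 0.73, had a wide error (SE 0.58, 95% interval -0.55 to 2.01; edgeR adjusted p = 0.523), which reaches from a fall to a rise.

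Sohlh1 was at 0 counts in all 3 fresh libraries, gave 40 counts in cryopreservation-1 replicate 2 alone, and gave 19 and 16 in cryopreservation-2 replicates 2 and 3. Set against a floor of 3 counts over the whole fresh group, the level was 13.6-fold higher after cryopreservation-1 and 15.4-fold higher after cryopreservation-2. These ratios rest on 1 and 2 of 3 libraries and allow for counting error in fresh only, so they are not lower bounds. The fitted log2 difference from fresh was 6.55 (SE 2.99) for cryopreservation-1 and 6.79 (SE 3.02) for cryopreservation-2. Its size is poorly defined against a group at 0 counts, and no interval is given. The unadjusted p of edgeR's quasi-likelihood test was 0.0584 and 0.0534, so neither was under 0.05. The edgeR adjusted p was 1 and 0.238 against fresh. The 5 E-boxes before its start were the most of the 7 members searched. Whether the number of E-boxes goes with level was not tested.

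Taf4b and Tbpl2 belong to the basal machinery at promoters. Taf4b had close replicates, with 21.4, 22.3 and 19.5 CPM in fresh, 18.8, 18.03 and 18.7 in cryopreservation-1 and 11.6, 12.97 and 14.9 in cryopreservation-2 libraries. No pair of groups overlapped: each cryopreservation-1 library was below each fresh one, and each cryopreservation-2 library below both. The difference of cryopreservation-2 was -0.68 from fresh (SE 0.21, 95% interval -1.15 to -0.21, 1.60-fold lower; edgeR adjusted p = 0.0935; by DESeq2 -0.66, adjusted p = 0.00903) and -0.49 from cryopreservation-1 (SE 0.21, 95% interval -0.96 to -0.02; edgeR adjusted p = 0.241). Cryopreservation-1 differed from fresh by -0.19 (SE 0.21, 95% interval -0.65 to 0.28; edgeR adjusted p = 1).

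Tbpl2 had 18.6, 24.9 and 32.3 CPM in fresh, 19.4, 22.8 and 29.9 in cryopreservation-1 and 21.9, 14.35 and 14.45 in cryopreservation-2 libraries. Cryopreservation-2 replicates 2 and 3 were the lowest of all 9, but its replicate 1 lay within the other groups. The difference of cryopreservation-2 from fresh was -0.58 (SE 0.29, 95% interval -1.23 to 0.07; edgeR adjusted p = 0.284). The highest Tbpl2 level of each group was in the library of that group with the most genes at 0 counts (fresh replicate 3, cryopreservation-1 replicate 3 and cryopreservation-2 replicate 1), and the highest Sohlh2 level of both frozen groups was too. In the 6 libraries without these, the differences from fresh were -0.50 for Tbpl2 (edgeR adjusted p = 0.312), -0.99 for Sohlh2 (edgeR adjusted p = 0.232), -0.55 for Taf4b (edgeR adjusted p = 0.226) and 0.95 for Nobox (edgeR adjusted p = 0.0796).

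Foxo3 was the most even of the 7 factors other than Sohlh1, with a CV of 14.0% over the 9 libraries, where Sohlh2 had 43.9%. It had 119, 81.2 and 109 CPM in fresh, 90.2, 83.7 and 102 in cryopreservation-1 and 99.05, 79.9 and 102 in cryopreservation-2 libraries. All groups overlapped, and the difference of cryopreservation-2 from fresh was -0.14 (SE 0.21, 95% interval -0.59 to 0.32; edgeR adjusted p = 0.776). That of cryopreservation-2 from cryopreservation-1 was 0.03 (SE 0.21, 95% interval -0.43 to 0.48; edgeR adjusted p = 0.975).

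Counted over the members, groups did not overlap for 1 of 8 between cryopreservation-1 and fresh (Taf4b, lower; 10.1% of all genes, 6.37% higher and 3.72% lower), 2 of 8 between cryopreservation-2 and fresh (Nobox higher and Taf4b lower; 27.5%, of which 15.1% higher and 12.4% lower) and 4 of 8 between cryopreservation-2 and cryopreservation-1 (Nobox and Figla higher, Sohlh2 and Taf4b lower; 29.0%, of which 13.8% higher and 15.2% lower). The first 2 counts are near what such shares of 8 genes give. The third is higher, but with only 8 genes, some of which vary together, it is not read as a result about the members. Across the 9 libraries, log2 CPM of Nobox and Taf4b ran opposite (Pearson r = -0.907), and Sohlh2 and Tbpl2 ran together (r = 0.873). These r over 9 libraries are descriptions, since the libraries share groups, depth and replicate differences. Among 6426 tested genes at a mean of at least 10 CPM, the 3 most like Nobox were Phb (r = 0.967), Atp6v1f (r = 0.967) and Mrnip (r = 0.958).

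The oocyte factors were next set beside relatives from their gene families, per length in FPKM. Tbpl2 made up 47.8% ± 6.81 (SD, n = 3) of the summed FPKM of Tbpl2, Tbp and Tbpl1 in fresh oocytes, 48.8% ± 5.82 after cryopreservation-1 and 43.4% ± 0.990 after cryopreservation-2. By CPM Tbp was more abundant than Tbpl2 (114 against 25.3 CPM in fresh). The annotated summed exon length of Tbp is 13576 bases, with a longest transcript of 12794, against 1379 bases for Tbpl2. The FPKM share of Tbpl2 therefore depends on this annotated length. Which Tbp transcripts were present was not tested, and shorter ones would make the share of Tbpl2 too high. Lhx8 held 90.0%, 91.2% and 93.5% of the FPKM of Lhx8, Lhx2 and Lhx5 in the 3 groups. Taf4b was the minor form beside Taf4, at 27.6%, 31.1% and 25.6% of their sum, and Foxo3 was the minor form beside Foxo1, at 23.8%, 30.9% and 26.6%. Foxo1 varied widely between replicates, from 26.9 to 56.3 FPKM in fresh and from 17.5 to 45.7 in cryopreservation-2 libraries, where Foxo3 stayed between 8.37 and 14.1 FPKM in all 9.

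**Figure D3:**
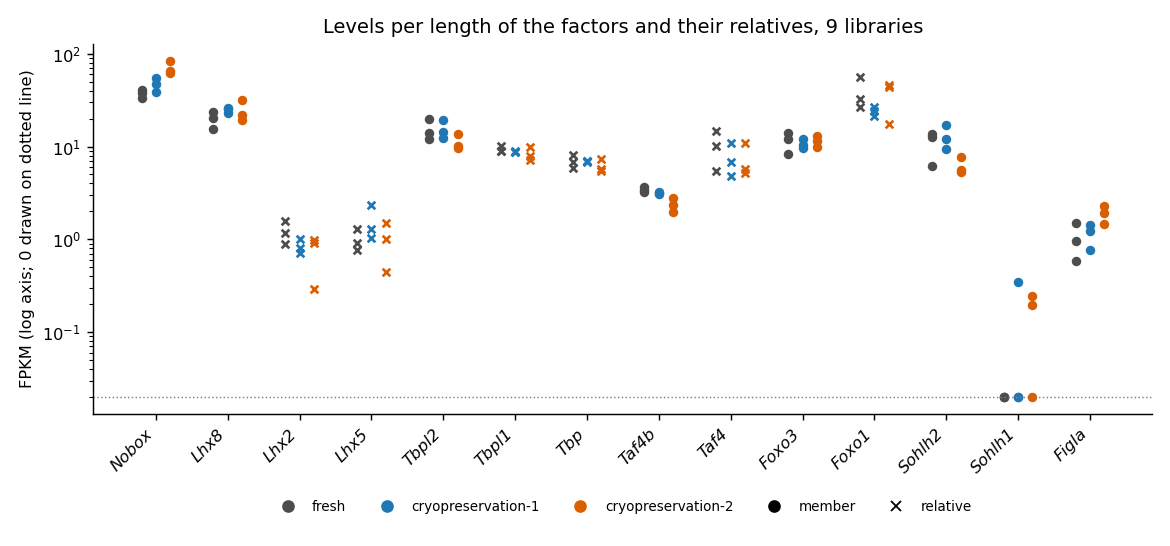
Deposited FPKM (level per length, log axis) of the factors (filled circles) and their relatives (crosses) in each of the 9 libraries, coloured by group, with values of 0 on the dotted line. Lhx8 lies above Lhx2 and Lhx5, Tbpl2 lies near Tbp and Tbpl1, and Taf4b and Foxo3 lie below Taf4 and Foxo1.

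Of 9 tested relatives of the factors, 0 were called by edgeR in any comparison, with 0, 1 and 1 at an unadjusted p under 0.05. DESeq2 called 1 lower for cryopreservation-2 against fresh. In that comparison Foxo6 had the largest estimate (-8.36, SE 2.47; edgeR adjusted p = 0.0921). It gave 16 to 88 counts in fresh and 0 in all cryopreservation-2 libraries, so the size of its difference is poorly defined. For cryopreservation-2 against fresh, the log2 fold change was -0.31 for Tbp (edgeR adjusted p = 0.482), -0.29 for Tbpl1 (edgeR adjusted p = 0.477), -0.58 for Taf4 (edgeR adjusted p = 0.446) and -0.26 for Foxo1 (edgeR adjusted p = 0.740). Of 15 tested TFIID subunits other than Taf4b, 0 were called in any comparison by the reported edgeR fit. Between the 2 methods 1 was called lower by DESeq2, by both limma fits and by edgeR with the stricter filter. For cryopreservation-2 against fresh 3 had an unadjusted p under 0.05 and DESeq2 called 2 lower. In the same comparison 14 of 15 had a negative estimate, with a median of -0.31 beside -0.06 for all genes, and 12 to 14 were negative under all 21 other settings. The median was closer to 0 with length correction (-0.17, or -0.15 with the block as well) and by limma (-0.16 and -0.18). Against fresh, 12 of 15 were negative after cryopreservation-1, with a median of -0.22 beside 0.02. Between the 2 methods 9 of 15 were negative, with a median of -0.13 beside -0.07. Tbp and Taf4 are counted here and among the relatives above. The share of negative estimates over all genes was not taken. The subunits were measured in the same libraries and were not tested as a set, so these counts are descriptions. The lowest adjusted p for cryopreservation-2 against fresh were those of Taf13 (-0.65; edgeR adjusted p = 0.0605) and Taf6 (-0.79; edgeR adjusted p = 0.0702), close to the estimate of Taf4b, and Taf12 was the subunit with a positive one (0.36). Proteins that pair with the factors, namely the E proteins Tcf3, Tcf4 and Tcf12 for bHLH factors, Ldb1 and Ldb2 for LIM-homeobox factors and TFIIA and TFIIB subunits for Tbpl2, gave 0 calls among 9 by edgeR and by DESeq2, with 1, 0 and 1 at an unadjusted p under 0.05 by edgeR in the 3 comparisons. Of these Gtf2a1l, a germ cell subunit of TFIIA, stood at 98.4 ± 11.1 (SD, n = 3) CPM in fresh and 102 ± 32.4 in cryopreservation-2 oocytes.

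Among 25 tested oocyte genes known or thought to act downstream of these factors, 2 rose after cryopreservation-2 and none fell. Of all genes 3.18% were called higher and 2.20% lower, so that counts this small are near the background. Padi6, which is needed for the cytoplasmic lattices of the oocyte, had 191, 156 and 186 CPM in fresh, 292, 235 and 220 in cryopreservation-1 and 455, 401 and 289.6 in cryopreservation-2 libraries. No cryopreservation-2 library overlapped fresh, and the difference was 1.11 (SE 0.22, 2.15-fold; edgeR adjusted p = 0.0213). Oas1h, a member of the oligoadenylate synthetase family, went from 206 ± 31.3 (SD, n = 3) to 346 ± 30.3 CPM (0.75, SE 0.19; edgeR adjusted p = 0.0470). The Oas1h call was lost under 15 of 21 other settings and that of Padi6 under 5 of 21, with adjusted p up to 0.148 and 0.0709. The Padi6 call was lost without fresh replicate 1, 2 or 3 or cryopreservation-2 replicate 2 and in the 6 libraries with fewer zeros. The Oas1h call was lost without any 1 library other than fresh replicate 2.

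Known targets of Nobox and Figla were looked at by name, and none of 5 passed in the reported edgeR fit. The growth factor gene Gdf9, a Nobox target, stood at 10670 ± 2690, 10430 ± 2317 and 8426 ± 2754 CPM (SD, n = 3) in the 3 groups, a difference of -0.34 from fresh for cryopreservation-2 (edgeR adjusted p = 0.558), and its partner Bmp15 differed by -0.06 (edgeR adjusted p = 0.927). The zona pellucida genes, which Figla activates, had estimates of 0.51 for Zp1 (edgeR adjusted p = 0.149), 0.50 for Zp2 (edgeR adjusted p = 0.194) and 0.31 for Zp3 (edgeR adjusted p = 0.709). Zp1 had 82.1, 101 and 83.1 CPM in fresh and 122, 129 and 128 in cryopreservation-2 libraries, which did not overlap, and it passed in 3 of 21 other settings (DESeq2 and both limma fits; lowest adjusted p = 0.0362). Over all 25 downstream genes, 14 estimates were positive and 11 negative for cryopreservation-2 against fresh, with a median of 0.04 beside -0.06 for all genes.

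Of 20 genes listed around the control of Foxo3, 1 fell after cryopreservation-2 and none rose. The list holds Kit, PI3K and AKT genes, with others such as Mtor, Stk4 and Sirt1. Of all genes 2.20% were called lower and 3.18% higher, so that 1 of 20 is near the background. The gene that fell was Pdpk1, which encodes the kinase PDK1 that activates AKT. It had 194, 162.5 and 164 CPM in fresh, 193, 154 and 154 in cryopreservation-1 and 76.7, 86.3 and 92.75 in cryopreservation-2 libraries. All cryopreservation-2 libraries were below the other 6, by -1.03 against fresh (SE 0.18, 2.04-fold lower; edgeR adjusted p = 0.0158) and by -0.97 against cryopreservation-1 (edgeR adjusted p = 0.0268). The call against fresh was lost in 5 of 21 other settings, which were the fit without fresh replicate 1, that without cryopreservation-2 replicate 2, the 6 libraries, the 2 groups alone, and the block with length correction. The highest adjusted p among these was 0.0753. The call against cryopreservation-1 was lost in 9 of 21, which included each fit without 1 library of either frozen group. The Kit receptor itself stood at 78 ± 30.5 (SD, n = 3) CPM in fresh and 78.7 ± 15.2 in cryopreservation-2 oocytes.

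Among 15 tested target genes of FOXO factors, 1 rose after cryopreservation-2, where 3.18% of all genes were called higher, so that this count too is near the background. This was Txnip, which encodes an inhibitor of thioredoxin, with 148, 154 and 123 CPM in fresh, 230, 179 and 248 in cryopreservation-1 and 212, 338 and 345 in cryopreservation-2 libraries. The cryopreservation-2 libraries were all above fresh, by 1.08 (SE 0.23, 2.11-fold; edgeR adjusted p = 0.0293). The call was lost in 9 of 21 other settings, with adjusted p up to 0.104, including the fits without fresh replicate 1, 2 or 3, cryopreservation-1 replicate 1 or cryopreservation-2 replicate 2 or 3. Cdkn1b, a cell cycle inhibitor often used as a FOXO readout, had 2.71 ± 0.899 (SD, n = 3) CPM in fresh and 6.75 ± 2.14 in cryopreservation-2 oocytes (1.31; edgeR adjusted p = 0.0823). The median of the 15 was -0.27 beside -0.06 for all genes, with 6 estimates positive and 9 negative. It is the estimate of Gadd45b alone (SE 0.81), at 1.86 CPM in fresh and 1.54 after cryopreservation-2. For cryopreservation-1 against fresh the median was 0.20 beside 0.02, with 9 positive and 6 negative. The summed level of the list was 402, 486 and 506 CPM in the 3 groups, so no common direction is read from the median.

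**Figure D4:**
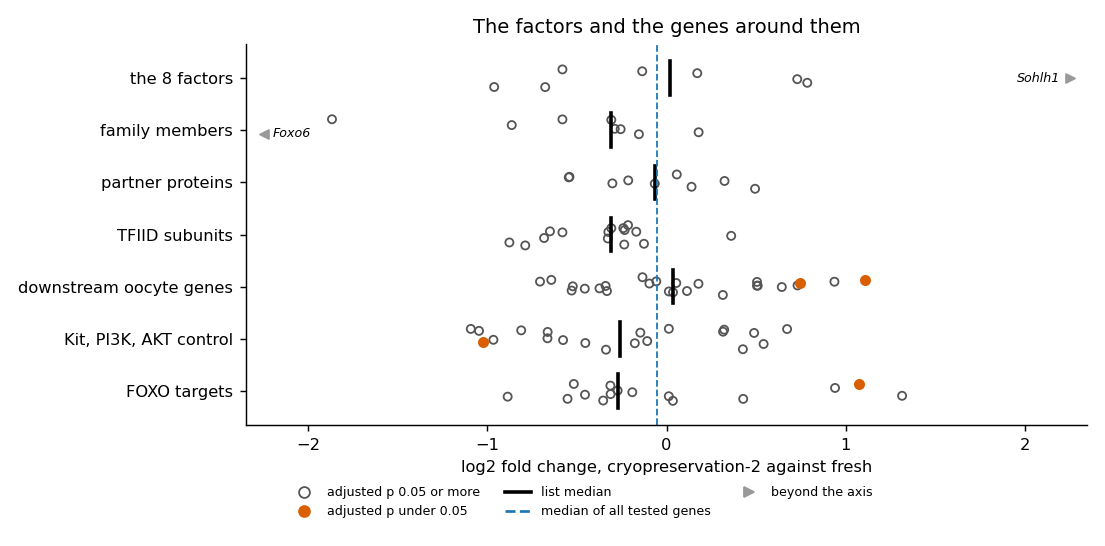
Log2 fold change of cryopreservation-2 against fresh (edgeR) for the 8 factors and the 6 lists of genes around them; filled points passed an adjusted p under 0.05, bars are list medians and the dashed line is the median of all tested genes (-0.06). Filled points are Padi6 and Oas1h among downstream genes, Pdpk1 in the Kit, PI3K and AKT list and Txnip among FOXO targets, and 14 of the 15 TFIID subunits lie left of 0. Triangles mark Sohlh1 (higher) and Foxo6 (lower), whose estimates lie beyond the axis.

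**Figure D5:**
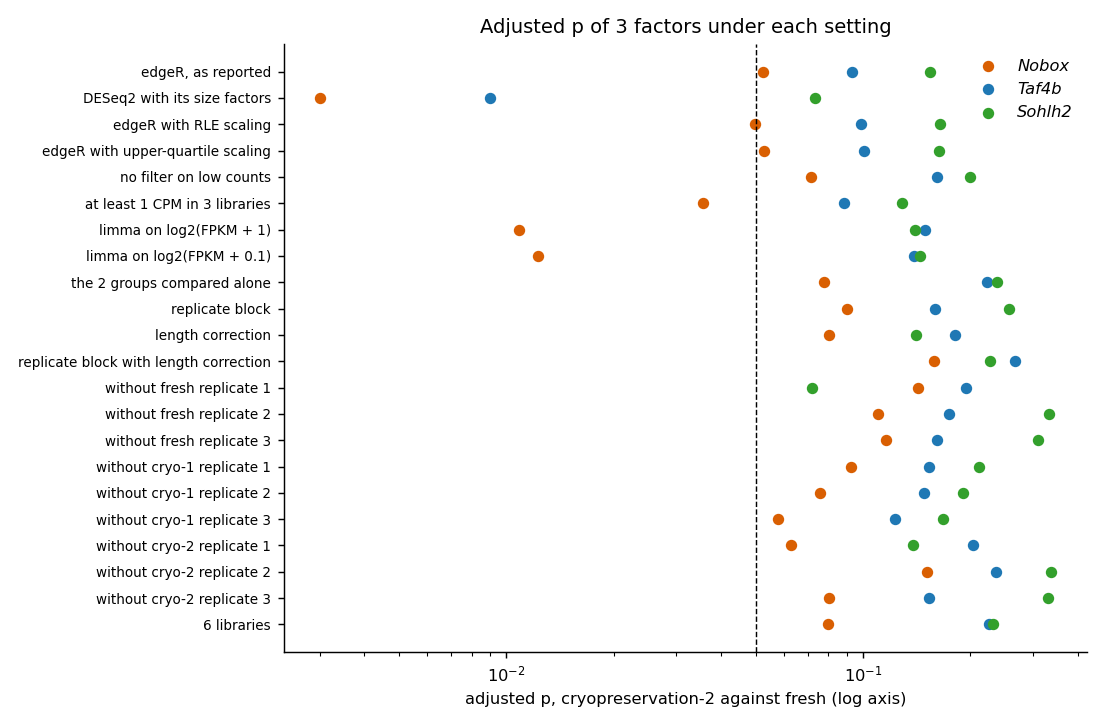
Adjusted p (log axis) of Nobox, Taf4b and Sohlh2 for cryopreservation-2 against fresh under the reported edgeR fit and 21 other settings, with the dashed line at 0.05. Nobox lies left of the line in 5 of the 21, Taf4b in 1 (DESeq2) and Sohlh2 in none.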

How the data were processed

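Poly(A) RNA-seq of 9 mouse oocyte libraries was analysed, 3 per group by the treatment labels. Per the labels' protocols the libraries mark the strand with dUTP and were PCR-amplified, with no molecular identifiers named. Per the submitters' processing notes, cutadapt 1.9, HISAT2 2.0.4, StringTie 1.3.4d and GRCm38 were used. Of the counting tool and its strand setting nothing is stated in the labels, so reads of overlapping genes on opposite strands cannot be told apart. The authors deposited raw counts per gene, whole numbers that were not normalized, and FPKM, which divide them by gene length and depth. The deposited FPKM matched a divisor of summed exon length within 0.05 (log2) for 96.2% of 18639 genes compared.

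Counts were filtered with filterByExpr (minimum count 10, minimum total 15), which kept 17545 genes, scaled by TMM and fitted for all 9 libraries together with edgeR 4.0.16 (R 4.3.3). P-values of the quasi-likelihood test were adjusted by Benjamini-Hochberg within each comparison, and a gene was called at an adjusted p under 0.05. The test was also run on simulated data, drawn as independent libraries with the fitted spread of each gene. Such data hold no shared replicate differences and no libraries with extra zeros, so they do not cover these features. The common biological coefficient of variation was 0.662. Alternatives used DESeq2 1.42.0, limma 3.58.1 on log2(FPKM + 1) or log2(FPKM + 0.1) and other filters, scalings and sets of libraries. Any 2 libraries of a group differed beyond sampling noise, with a chi-square per degree of freedom of 78.1 to 297.

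The members and gene lists were chosen with earlier results of these data known. All 8 members are named, with the 3 genes most like the member of highest FPKM, called genes of each list, and fixed relatives and targets (Tbp, Tbpl1, Taf4, Foxo1, Foxo4, Gdf9, Bmp15, Zp1, Zp2, Zp3). Foxo4 was not analysed here. Other genes named beside a count (Taf6, Taf12, Taf13, Gtf2a1l, Cdkn1b, Gadd45b, Foxo6, Kit) were chosen after their values were seen. Replicate numbers were checked for pairing by correlating deviations from group means. Same-numbered fresh and cryopreservation-1 libraries gave r of 0.28, 0.429 and 0.523, above the other pairs of these groups (-0.393 to 0.11). Their numbers may thus pair them, though no batch is stated. Unlike numbers also gave high r: cryopreservation-2 replicate 1 had 0.496 with cryopreservation-1 replicate 3 and 0.36 with fresh replicate 3. These 3 libraries had the most genes at 0 counts, and pairing was not established. The reported values come from the fit without the block, and fits with it are alternatives. Same-numbered cryopreservation-2 libraries showed no such pattern with fresh (r of -0.237, 0.177 and -0.259) or with cryopreservation-1.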

Additional observations from a re-analysis of the deposited data

How the results depend on the processing

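Of 499 recomputed log2 fold changes of the 8 factors, 468 kept their direction and their side of the threshold, 24 reversed and 7 passed the threshold that the reported fit did not reach. The number of factors called rose from 0 to 2 with DESeq2 and to 1 with RLE scaling, with a filter of at least 1 CPM in 3 libraries and with limma under either pseudocount for cryopreservation-2 against fresh, and to 1 with DESeq2 for cryopreservation-2 against cryopreservation-1.

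The count of all genes called moved more than that of the factors. For cryopreservation-2 against fresh, 944 genes were called (558 higher, 386 lower). DESeq2 called 2471, limma 1917 and 1785 (pseudocounts 1 and 0.1; 1443 higher and 474 lower with 1), the 2 groups compared alone 429 (352 higher, 77 lower), the replicate block 500, the block with length correction 548, and the 6 libraries with fewer genes at 0 counts 194. Leaving out 1 library gave 231 to 786, more than 1.5 times below 944 for each library other than cryopreservation-1 replicate 3 (700) and cryopreservation-2 replicate 1 (786). For cryopreservation-2 against cryopreservation-1, 483 genes were called, against 1892 by DESeq2, 1457 and 1205 by limma, 230 with the replicate block, 291 with the block and length correction, 0 in the 6 libraries, and 15 to 480 without 1 library. For cryopreservation-1 against fresh, 0 became 43 with DESeq2, 1 with the 2 groups compared alone, 1 with the replicate block in those groups and 0 to 1 without 1 library. The replicate block changed the call of no factor. The 6-library fit and the block in 2 groups alone were chosen after seeing the data.

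Estimates changed sign as follows. For cryopreservation-1 against fresh, leaving out 1 library gave -0.21 to 0.54 for Figla, -0.16 to 0.40 for Sohlh2 and -0.26 to 0.14 for Tbpl2. The 6 libraries gave -0.27 for Figla and -0.02005 for Sohlh2, and limma gave 0.005124 and 0.00574 for Tbpl2. For cryopreservation-2 against fresh, Lhx8 ranged from -0.05071 to 0.3287 and Foxo1 from -0.46 to 0.10 without 1 library. Foxo3 was 0.006294 and 0.008671 by limma, 0.05249 with length correction and 0.05376 with the block as well. Bmp15 was 0.04777 and 0.04786 by limma and -0.19 to 0.13 without 1 library. For cryopreservation-2 against cryopreservation-1, leaving out 1 library gave -0.2904 to 0.08905 for Lhx8, -0.34 to 6.77 for Sohlh1 and -0.03705 to 0.1625 for Foxo3, and the 6 libraries gave 0.07714 for Lhx8. Sohlh1 has no estimate where both groups were at 0, or where a filter removed it. The summed share of the factors on scaled library size was 0.03487% after cryopreservation-1 and 0.03628% after cryopreservation-2. The cause of each change was not tested. Depth limits Figla and Sohlh1, at 0 to 113 counts per library.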
